A study of Mus musculus with 6 samples.

Results

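Transcripts of 43 genes that mark astrocytes or their reactive state were compared between cultured hippocampal cells of mice with *Fmr1* knocked out (*Fmr1* KO) and of wild type (WT) mice. The genes were chosen by symbol, as known markers of the cell type. They fall into 31 homeostatic genes, which resting astrocytes use for their daily work, and 12 reactive genes, which astrocytes make after injury or inflammation. All 43 symbols were found among the 47086 loci of the deposited table, and 37 of them were among the 13195 loci that were tested. The 6 that were not tested are all reactive genes at very low level.

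Total RNA was sequenced after 14 days in vitro from cultures on the C57BL/6 background, with 3 WT and 3 *Fmr1* KO libraries. The labels give no treatment for either group. Fragile X syndrome follows loss of FMRP, the RNA-binding product of *Fmr1*, and the question was which transcripts differ when it is missing. The labels call the samples hippocampal neurons, but the RNA came from whole cultures, and the assay is bulk. The methods describe newborn pups as the source of the cultures used for other assays. For its mice in general the study used male *Fmr1* KO animals with WT littermates, from heterozygous mothers. For the pups behind each of these libraries, sex and litter are not stated in the sources used here, and neither are the *Fmr1* allele and the C57BL/6 substrain.

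Astrocytes are the glial cells that clear glutamate and potassium from around synapses, pass ions and metabolites through gap junctions and feed neurons with products of glycolysis. In cultures from newborn hippocampus they keep dividing while the neurons do not, and they spread beneath them. After injury, or when microglia release cytokines, they thicken their intermediate filaments and switch on secreted and complement proteins, a state called reactive.

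Levels are given as FPKM, the fragments of a transcript divided by transcript length and by the library's mapped fragments, so that genes of different length can be compared. Changes are log2 differences of *Fmr1* KO minus WT on the log2(FPKM + 0.1) scale, with their standard errors (SE), from a limma fit over all 13195 loci with a mean of at least 1 FPKM in either genotype. A gene is said to have changed only where p, adjusted over all these loci by the Benjamini-Hochberg method, is below 0.05. The number of reads cannot be had from FPKM, so no counting interval was made, and the spread over 3 libraries sets the precision. Nothing says whether the 3 libraries of a genotype came from separate animals, so the p-values measure the spread between these libraries, which may be technical.

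Pearson's r between the log2 values of 2 libraries was 0.970 to 0.978 within a genotype and 0.962 to 0.977 between genotypes. For *Fmr1* itself, the WT libraries held 19.0, 19.5 and 19.7 FPKM and those labelled *Fmr1* KO 23.1, 21.8 and 18.5 FPKM, a difference of 0.12 (SE 0.08, adjusted p = 0.536 by limma). A value over the whole locus can include RNA from a disrupted allele, so it neither bears out nor contradicts the genotype labels, which are followed here.

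Astrocyte transcripts were among the most abundant in these cultures. The WT means of *Gfap* and *Fabp7* were 576 ± 49.6 and 580 ± 47.9 FPKM (SD, n = 3), and their levels over all 6 libraries stood at the 99.6 and 99.7 percentile of the tested loci. Summed over the 43 genes, the libraries held 4040 to 4555 FPKM in WT and 4155 to 4474 FPKM in *Fmr1* KO. For comparison, 16 neuron markers summed to 2568 to 2665 FPKM in WT and 2641 to 2758 FPKM in *Fmr1* KO. RNA of both cell types was therefore present, and in such bulk RNA fewer cells of a type and less RNA per cell cannot be told apart.

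Of the 37 tested genes, 3 were lower in *Fmr1* KO and 0 were higher at an adjusted p below 0.05 by limma, where 0.174% of all tested loci were lower, 0.0909% were higher and 0.265% passed in either direction. The 3 were *Serpina3n* among the reactive genes, and *Gjb6* and *Slc14a1* among the homeostatic genes. At an unadjusted p below 0.05, 12 of the 37 were lower and 2 were higher, against 7.77% and 6.99% of all tested loci and 14.8% in either direction. WT and *Fmr1* KO libraries were fully separated for 9 genes that were lower and 3 that were higher in *Fmr1* KO, where 10.3% and 10.8% of all tested loci were separated in these directions and 21.1% in either. The median change was -0.04 over the 37 genes and 0.005 over all tested loci.

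**Figure D1:**
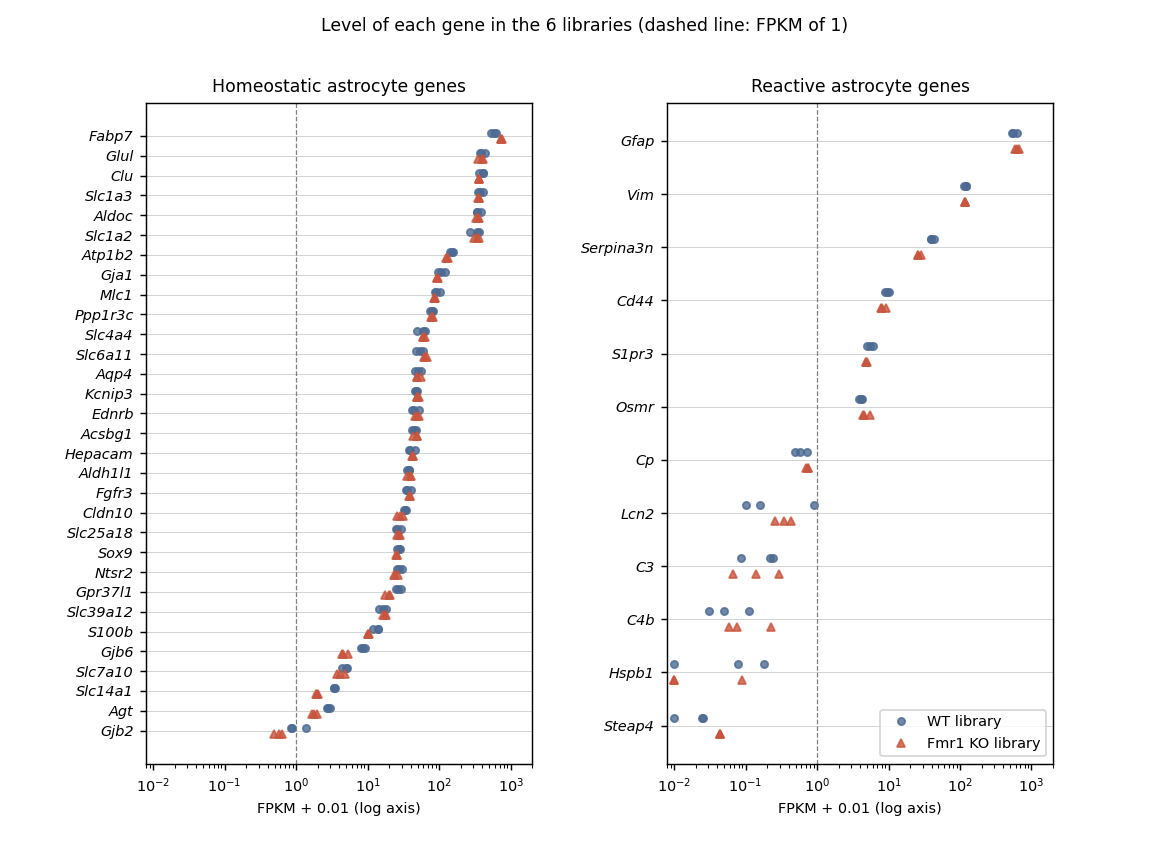
FPKM of each of the 43 genes in each library, plotted as FPKM + 0.01 on a log axis, with homeostatic genes on the left and reactive genes on the right (circles WT, triangles *Fmr1* KO, dashed line at 1 FPKM). All 31 homeostatic genes reached a mean of 1 FPKM in at least 1 genotype, while 6 of the 12 reactive genes, from *Cp* down to *Steap4*, stayed below it in all 6 libraries.

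The promoters of 3 genes are printed here. *Serpina3n* and *Gjb6* fell, with the lowest adjusted p of the 37. *Fabp7* had the largest positive difference of the 37 but did not pass the test. The promoter of *Slc14a1*, the other gene that fell, is not printed. Each printed promoter is the 250 bases before the RefSeq start on GRCm38.p6, written 5′ to 3′ on the strand of the gene. *Serpina3n* is at chr12:104406458-104406707 on the plus strand, *Gjb6* at chr14:57133612-57133861 on the minus strand and *Fabp7* at chr10:57784673-57784922 on the plus strand. Capitals mark matches to any of 4 motifs searched on both strands.
Serpina3n: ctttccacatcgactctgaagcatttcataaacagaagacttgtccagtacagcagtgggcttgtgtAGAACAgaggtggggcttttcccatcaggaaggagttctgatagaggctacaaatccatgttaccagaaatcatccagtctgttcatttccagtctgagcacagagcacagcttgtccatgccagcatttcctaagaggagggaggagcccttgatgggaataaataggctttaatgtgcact
Gjb6: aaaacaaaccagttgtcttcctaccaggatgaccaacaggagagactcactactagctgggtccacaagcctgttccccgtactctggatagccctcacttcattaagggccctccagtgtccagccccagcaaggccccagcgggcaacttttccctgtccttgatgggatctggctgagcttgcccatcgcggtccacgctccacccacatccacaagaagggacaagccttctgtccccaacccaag
Fabp7: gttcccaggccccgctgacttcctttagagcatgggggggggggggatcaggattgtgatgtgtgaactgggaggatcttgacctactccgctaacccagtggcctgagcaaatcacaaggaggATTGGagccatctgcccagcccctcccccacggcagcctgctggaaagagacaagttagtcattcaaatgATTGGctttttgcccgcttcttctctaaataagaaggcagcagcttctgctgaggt
The motifs were the STAT site TTCNNNGAA, the glucocorticoid receptor motif AGAACA, the CCAAT box and the TATA box TATAAA. *Serpina3n* held AGAACA, which 16.1% of the 32851 RefSeq promoters of this length also held. *Fabp7* held CCAAT on the opposite strand, as 33.8% of all promoters held CCAAT on either strand, and *Gjb6* held none of the 4. Promoters were found for 37 of the 43 genes. AGAACA was in 5 of them, TTCNNNGAA in 7 (7.02% of all promoters), CCAAT in 16 and TATAAA in 7 (12.4% of all promoters). A match describes the letters in this window and says nothing about binding.

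Among the reactive genes, *Serpina3n* fell. It encodes a secreted inhibitor of serine proteases and is one of the most widely used transcripts for reactive astrocytes. Its locus in the table is chr12:104406698-104414334 on GRCm38. The WT libraries held 43.1, 39.7 and 38.9 FPKM and the *Fmr1* KO libraries 26.2, 26.1 and 28.2 FPKM. Each WT library was higher than every *Fmr1* KO library, with a gap wider than the range within either genotype. The means were 40.6 ± 2.26 and 26.8 ± 1.18 FPKM (SD, n = 3), so the *Fmr1* KO mean was 66.1% of the WT mean. The change was -0.60 (SE 0.06, 95% interval -0.73 to -0.46, adjusted p = 0.00462 by limma). Its adjusted p stayed between 0.00227 and 0.0417 over 16 alternative settings. *Serpina3n* belongs to a cluster of near copies on chromosome 12, which can take each other's reads. The other 13 *Serpina3* symbols of the table were at or below 0.389 FPKM in every library, and 7 of them were listed at 0 throughout.

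The intermediate filament genes, which define the reactive state in tissue, did not pass the test. *Gfap*, the filament protein of astrocytes, was listed at 554, 542 and 633 FPKM in WT and at 597, 630 and 675 FPKM in *Fmr1* KO. The highest WT library was above 2 of the 3 *Fmr1* KO libraries, and the difference was 0.14 (SE 0.07, 95% interval -0.02 to 0.30, adjusted p = 0.409). *Vim*, encoding vimentin, was at 123, 113 and 123 FPKM in WT and at 116 FPKM in each *Fmr1* KO library, with a difference of -0.04 (95% interval -0.15 to 0.07). Within single libraries, *Serpina3n* made up 7.79%, 7.32% and 6.15% of the *Gfap* FPKM in WT and 4.38%, 4.14% and 4.17% in *Fmr1* KO, so the ratio was separated as well.

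The 3 tested surface proteins of the reactive list were expressed at 3.86 to 9.99 FPKM, and none passed the test. *Cd44*, the hyaluronan receptor, averaged 9.47 ± 0.494 FPKM in WT and 8.39 ± 0.783 FPKM in *Fmr1* KO, a difference of -0.17 (adjusted p = 0.365). *S1pr3*, a receptor for sphingosine-1-phosphate, differed by -0.15 (adjusted p = 0.454). A predicted gene, *Gm32834*, shares its region at 1.35 to 3.63 FPKM. *Osmr*, the oncostatin M receptor subunit through which this cytokine acts on astrocytes, was listed at 3.86, 4.17 and 4.30 FPKM in WT and at 4.47, 5.48 and 4.41 FPKM in *Fmr1* KO. These libraries did not overlap, by a gap smaller than the range within either genotype, and the difference was 0.21 (SE 0.10, adjusted p = 0.392).

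The transcripts that are switched on most in strongly reactive astrocytes were near the floor of the table. *Lcn2*, the iron-siderophore carrier lipocalin 2, was listed at 0.0930, 0.906 and 0.148 FPKM in WT and at 0.248, 0.422 and 0.335 FPKM in *Fmr1* KO. *C3*, the central complement component, lay between 0.0575 and 0.280 FPKM over the 6 libraries. These values overlapped between genotypes, and 1 WT library held the highest *Lcn2* value. *C4b*, a complement component with a near-identical copy next to it and 4 loci in the table, lay between 0.0213 and 0.217 FPKM, and its reads cannot be assigned with certainty. *Cp*, the ferroxidase ceruloplasmin, lay between 0.490 and 0.748 FPKM, in a region it shares with *Hps3* at 4.88 to 5.69 FPKM. *Hspb1*, a small heat shock protein, was listed at 0 in 3 libraries and at most at 0.171 FPKM. *Steap4*, a metalloreductase, was at 0, 0.0142 and 0.0151 FPKM in WT and at 0.0337, 0.0345 and 0.0341 FPKM in *Fmr1* KO. The *Steap4* values were separated, at a level far below 1 FPKM.

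A wider list held 38 further reactive genes. Of these, *Chi3l1* was not found under that symbol, 4 were at 0 in every library, 12 were below 1 FPKM and 21 were tested. Each of the 4 at 0 has several loci, where a 0 does not show that the transcript was absent. None of the 21 passed the test by limma. At an unadjusted p below 0.05, 1 gene was higher and 4 were lower, where all tested loci gave 6.99% and 7.77%. The median change was -0.06 over the 21. *Timp1*, *H2-T23* and *Lgals3* entered the test through their WT mean only, and without them 3 genes were lower and 1 higher, with a median of 0.02 over 18. The largest difference upwards was in *Nes*, the filament protein nestin, which averaged 8.86 ± 1.10 FPKM in WT and 11.5 ± 1.24 FPKM in *Fmr1* KO (0.37, SE 0.11, adjusted p = 0.185). The largest downwards was in *Timp1*, an inhibitor of matrix metalloproteases, at 1.79 ± 0.330 and 0.972 ± 0.430 FPKM (-0.90, SE 0.32, adjusted p = 0.259). The *Timp1* locus of the table spans 123 kb and so reaches well beyond the gene.

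**Figure D2:**
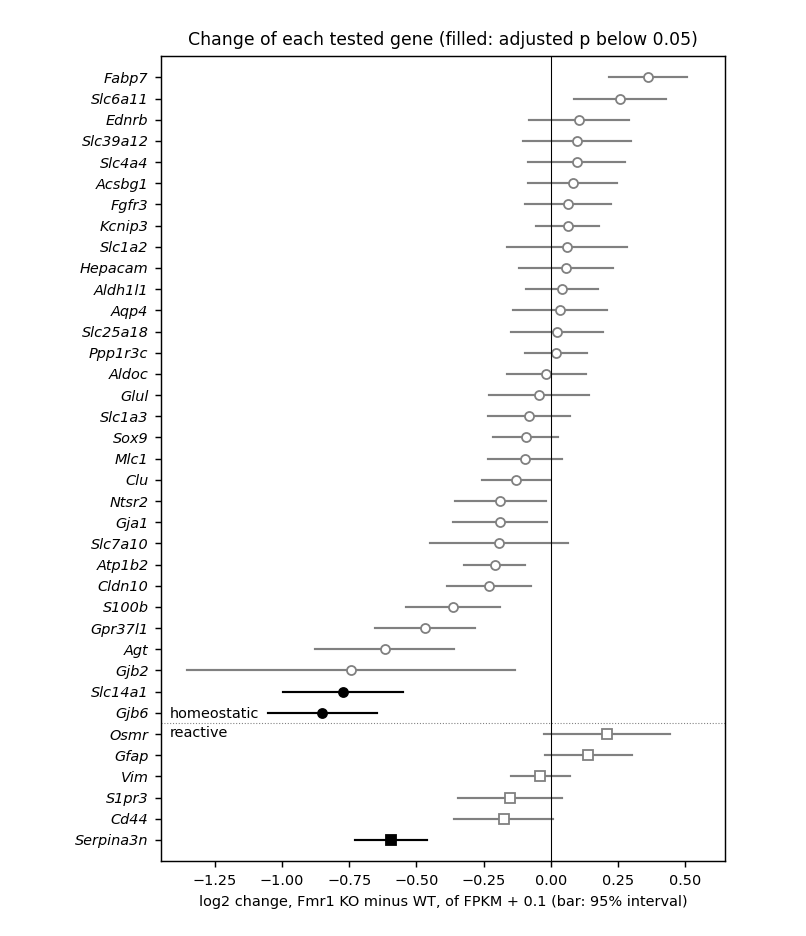
Change of each of the 37 tested genes, as the log2 difference of *Fmr1* KO minus WT with its 95% interval (circles homeostatic, squares reactive, filled where the adjusted p is below 0.05). *Gjb6*, *Slc14a1* and *Serpina3n* are filled and lie between -0.85 and -0.60, and *Fabp7* lies farthest to the right at 0.36.

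Among the homeostatic genes, *Gjb6* had the largest fall, and the other 2 gap junction genes did not pass the test. Gap junctions couple astrocytes into a network, and their main subunits are connexin 43 (*Gja1*), connexin 30 (*Gjb6*) and connexin 26 (*Gjb2*). *Gjb6* lies at chr14:57123301-57133611 on GRCm38. It was listed at 7.96, 9.05 and 8.64 FPKM in WT and at 5.23, 4.41 and 4.47 FPKM in *Fmr1* KO. No *Fmr1* KO library came near the lowest WT library. The mean fell from 8.55 ± 0.553 to 4.70 ± 0.457 FPKM (SD, n = 3), which is 55.0% of the WT mean, and the change was -0.85 (SE 0.09, 95% interval -1.05 to -0.65, adjusted p = 0.00679 by limma). Without an FPKM minimum, with 26981 loci in the adjustment, its adjusted p was 0.0565.

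*Gjb2* lies 18.6 kb from *Gjb6* on chromosome 14 and was the lowest of the 31 homeostatic genes. It was listed at 1.38, 0.840 and 0.854 FPKM in WT and at 0.476, 0.627 and 0.573 FPKM in *Fmr1* KO. These values did not overlap, but WT replicate 1 was well above the other two WT libraries, and the gene entered the test through its WT mean only. The difference was -0.74 (SE 0.27, 95% interval -1.35 to -0.13, adjusted p = 0.259). *Gja1*, the major connexin, was listed at 97.3, 106 and 122 FPKM in WT and at 92.3, 93.7 and 97.4 FPKM in *Fmr1* KO. Its groups touched, since the highest *Fmr1* KO library was just above the lowest WT library, and the difference was -0.19 (SE 0.08, adjusted p = 0.301). As a share of the *Gja1* FPKM of the same library, *Gjb6* was 8.18%, 8.57% and 7.10% in WT, against 5.67%, 4.71% and 4.59% in *Fmr1* KO.

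Cells of the meninges also make *Gjb2*. The summed FPKM of 12 fibroblast and mural markers was 49.0 to 53.9 in WT and 39.9 to 47.8 in *Fmr1* KO. Most of it was the matrix proteoglycan gene *Dcn*, at 39.0 to 43.8 FPKM in WT and 30.1 to 39.0 FPKM in *Fmr1* KO. Of the 12, 7 had a lower and 5 a higher mean in *Fmr1* KO. The 5 included the collagen genes *Col1a1*, *Col1a2* and *Col3a1*, below 1 FPKM. By limma, 4 of the 12 were tested and none had an adjusted p below 0.05. *Dcn* alone was lower at an unadjusted p below 0.05 (-0.27, adjusted p = 0.237), where 7.77% of all tested loci were lower. The part of meningeal cells in the connexin values was not tested.

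*Slc14a1* encodes a urea transporter of astrocytes and was the other homeostatic gene that fell. It was listed at 3.34, 3.53 and 3.33 FPKM in WT and at 1.99, 1.97 and 1.88 FPKM in *Fmr1* KO. The spread within each genotype was small beside the gap between them. The mean fell from 3.40 ± 0.113 to 1.95 ± 0.0574 FPKM, which is 57.3% of the WT mean, with a change of -0.77 (SE 0.10, adjusted p = 0.0212 by limma). This call was lost when any 1 of the 6 libraries was left out, with adjusted p from 0.0537 to 0.101, and without an FPKM minimum, with 0.0794. *Aqp4*, the water channel of astrocyte endfeet on the same chromosome, was at 45.7 to 55.0 FPKM in WT and 49.1 to 55.3 FPKM in *Fmr1* KO, with a difference of 0.03 (95% interval -0.14 to 0.21). The *Slc14a1* level was 6.05% to 7.31% of that of *Aqp4* in WT and 3.40% to 4.06% in *Fmr1* KO.

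**Figure D3:**
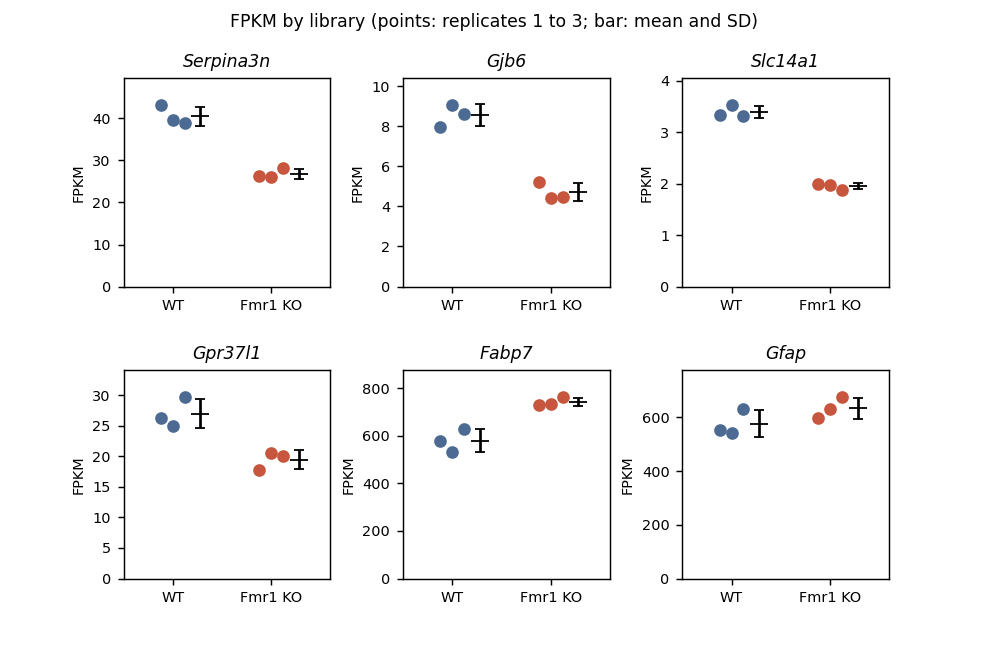
FPKM of *Serpina3n*, *Gjb6*, *Slc14a1*, *Gpr37l1*, *Fabp7* and *Gfap* in each library, on linear axes that start at 0 (points, replicates 1 to 3 of each genotype; bars, mean and SD). The genotypes are separated in the first 5 genes, of which *Fabp7* alone is higher in *Fmr1* KO, and they overlap in *Gfap*.

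Of the receptors and the other secreted proteins, none passed the test, and *Gpr37l1* and *Agt* had the lowest adjusted p. *Gpr37l1*, an orphan receptor of glia for which prosaposin has been proposed as a ligand, was listed at 26.3, 25.0 and 29.7 FPKM in WT and at 17.7, 20.6 and 20.1 FPKM in *Fmr1* KO. The libraries were clearly separated, the *Fmr1* KO mean was 72.2% of the WT mean, and the difference was -0.47 (SE 0.08, adjusted p = 0.0654). It passed with a minimum of 5 FPKM (adjusted p = 0.0439) and with robust variance estimates (adjusted p = 0.0475). *Agt*, encoding angiotensinogen, was at 2.72 to 2.93 FPKM in WT and 1.67 to 1.96 FPKM in *Fmr1* KO, a difference of -0.62 (SE 0.11, adjusted p = 0.0753). *Clu*, the abundant secreted chaperone clusterin, averaged 394 ± 26.5 and 360 ± 4.16 FPKM, with overlapping libraries and a difference of -0.13 (adjusted p = 0.332). The neurotensin receptor gene *Ntsr2* differed by -0.19 (adjusted p = 0.294), the endothelin receptor gene *Ednrb* by 0.10 (adjusted p = 0.601) and the growth factor receptor gene *Fgfr3* by 0.06 (adjusted p = 0.721).

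*Fabp7*, the brain fatty acid binding protein of radial glia and young astrocytes, was the most abundant of the 43 genes. It was listed at 578, 533 and 628 FPKM in WT and at 731, 736 and 763 FPKM in *Fmr1* KO. All *Fmr1* KO libraries were above all WT libraries, and the *Fmr1* KO mean was 128% of the WT mean. The difference of 0.36 (SE 0.06, 95% interval 0.22 to 0.51) had an adjusted p of 0.0685 by limma. Against *Gfap* in the same library, the *Fabp7* level was 98.4% to 104% in WT and 113% to 122% in *Fmr1* KO, and against *Aldoc* it was 158% to 171% and 209% to 224%.

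Dividing cells of the glial lineage also express *Fabp7*. All 12 proliferation markers had a higher mean in *Fmr1* KO, with a median difference of 0.26. At an unadjusted p below 0.05 by limma, 7 were higher, against 6.99% of all tested loci. None had an adjusted p below 0.05. The summed FPKM of the 12 was 76.5 to 84.2 in WT and 92.9 to 95.1 in *Fmr1* KO. The largest difference among them was in *Bub1*, a kinase of the spindle checkpoint (0.43, adjusted p = 0.217). The part of dividing cells in the *Fabp7* value was not tested.

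Glutamate handling was carried by 4 genes, and none differed at an unadjusted p below 0.05. *Slc1a3* and *Slc1a2* encode the uptake carriers GLAST and GLT-1, and *Glul* the glutamine synthetase that acts on the glutamate taken up. *Slc1a3* averaged 380 ± 33.9 FPKM in WT and 358 ± 11 FPKM in *Fmr1* KO, a difference of -0.08 (95% interval -0.23 to 0.07). For *Slc1a2* the means were 324 ± 44.6 and 336 ± 22.6 FPKM, with a difference of 0.06 (95% interval -0.16 to 0.28). *Glul* averaged 396 ± 36.8 and 384 ± 32.3 FPKM, with a difference of -0.04 (95% interval -0.23 to 0.14). *Slc25a18*, a mitochondrial glutamate carrier, differed by 0.02. The ratio of *Slc1a2* to *Slc1a3*, which rises as astrocytes mature, was 78.7%, 90.8% and 86.0% in WT, against 90.2%, 93.5% and 97.7% in *Fmr1* KO, and these ranges overlapped.

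The metabolic genes other than *Fabp7* gave similar values in both genotypes. *Aldoc*, the aldolase of brain glycolysis, averaged 352 ± 25.0 and 347 ± 19.9 FPKM (-0.02, 95% interval -0.16 to 0.13). *Aldh1l1*, a folate enzyme and a common astrocyte marker, averaged 37.3 ± 1.35 and 38.4 ± 2.35 FPKM (0.04, 95% interval -0.09 to 0.18). *Acsbg1*, which activates long-chain fatty acids, and *Ppp1r3c*, a glycogen-targeting subunit of protein phosphatase 1, differed by 0.08 and 0.02. *Sox9*, the transcription factor that sets up the astrocyte lineage, averaged 27.3 ± 1.33 and 25.6 ± 0.408 FPKM (-0.09, 95% interval -0.21 to 0.03).

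Of the remaining transporters and membrane proteins, none passed the test, and they differed in either direction. *Slc6a11*, the GABA transporter GAT-3, was listed at 48.2, 53.5 and 59.2 FPKM in WT and at 61.8, 63.3 and 67.0 FPKM in *Fmr1* KO, without overlap (0.26, SE 0.07, adjusted p = 0.185). In the other direction, *Atp1b2*, a subunit of the sodium pump, was at 143, 150 and 157 FPKM in WT and at 129, 134 and 126 FPKM in *Fmr1* KO, also without overlap (-0.21, SE 0.05, adjusted p = 0.130). The tight junction gene *Cldn10* differed by -0.23 (adjusted p = 0.200) with separated libraries. *Mlc1* and *Hepacam*, partners in a membrane complex whose loss causes a leukodystrophy, differed by -0.10 and 0.06. The bicarbonate transporter gene *Slc4a4* differed by 0.10, the zinc transporter gene *Slc39a12* by 0.10 and the amino acid transporter gene *Slc7a10* by -0.19 (adjusted p = 0.469), the last in a region shared with *Lrp3* at 24.9 to 26.6 FPKM.

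The list held 2 calcium-binding proteins. *S100b*, a classic glial marker, was listed at 13.8, 11.8 and 14.2 FPKM in WT and at 10.6, 9.96 and 10.2 FPKM in *Fmr1* KO. The genotypes were separated, with a difference of -0.36 (SE 0.08, adjusted p = 0.0957). *Kcnip3*, a potassium channel partner, differed by 0.06 (95% interval -0.05 to 0.18).

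As a list, the 31 homeostatic genes had 2 lower and 0 higher at an adjusted p below 0.05, where 0.174% and 0.0909% of all tested loci passed. Without adjustment, 11 were lower and 2 higher with p below 0.05, where all tested loci gave 7.77% and 6.99%. Their libraries were separated for 8 genes that were lower and 2 that were higher, where all tested loci gave 10.3% and 10.8%. Without *Gjb2* these counts were 10 lower by p and 7 lower by separation. The median change was -0.04, and -0.03 without *Gjb2*. For 24 of the 31 the 95% interval lay within 0.5 of 0 on the log2 scale, and for 13 of the 31 within 0.25. The summed FPKM was 3301, 3344 and 3740 in WT, against 3395, 3548 and 3636 in *Fmr1* KO, so the summed level overlapped.

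By level, the 6 genes at 200 FPKM or more had a median change of -0.03 and the 20 genes between 10 and 200 FPKM a median of 0.03, with 4 of the 6 and 8 of the 20 at a lower mean in *Fmr1* KO. The 5 genes below 10 FPKM (*Gjb6*, *Slc7a10*, *Slc14a1*, *Agt* and *Gjb2*) all had a lower mean in *Fmr1* KO. *Gjb2* entered the test through its WT mean only, and the other 4 had a median change of -0.70, with 3 at an unadjusted p below 0.05. The 5 genes' summed FPKM was 20.1 to 21.1 in WT and 12.7 to 13.7 in *Fmr1* KO. Of the 6509 tested loci below 10 FPKM, 50.8% had a lower mean in *Fmr1* KO, 8.23% were lower with an unadjusted p below 0.05, and the median change was -0.002.

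Library by library, WT replicate 3 had the highest WT value in 23 of the 31 homeostatic genes. *Fmr1* KO replicate 3 had the highest *Fmr1* KO value in 18 of them. Replicate 1 had the lowest value of its genotype in 15 genes in WT and 20 in *Fmr1* KO, and replicate 2 in 14 and 7. Without WT replicate 3 the median change of the 31 was 0.03, with 9 genes lower and 5 higher where the unadjusted p was below 0.05. The median log2 deviation of the 31 genes from the mean of all libraries was -0.05, -0.02 and 0.12 in WT replicates 1 to 3 and -0.08, -0.03 and 0.02 in *Fmr1* KO replicates 1 to 3. The spread between the WT libraries was wider than the median change between genotypes.

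A wider list of 52 homeostatic astrocyte genes, none of them among the 43, gave 49 tested genes with none past the test by limma. Without adjustment, 7 were higher and 6 lower with p below 0.05, where all tested loci gave 6.99% and 7.77%. The median change of the 49 was 0.0004. The extremes were *Slc7a11*, the cystine-glutamate exchanger (0.27, adjusted p = 0.298), and *Lcat*, an enzyme that esterifies cholesterol in lipoproteins, at 13.2 ± 1.46 FPKM in WT and 9.82 ± 0.148 FPKM in *Fmr1* KO (-0.42, adjusted p = 0.0753).

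**Figure D4:**
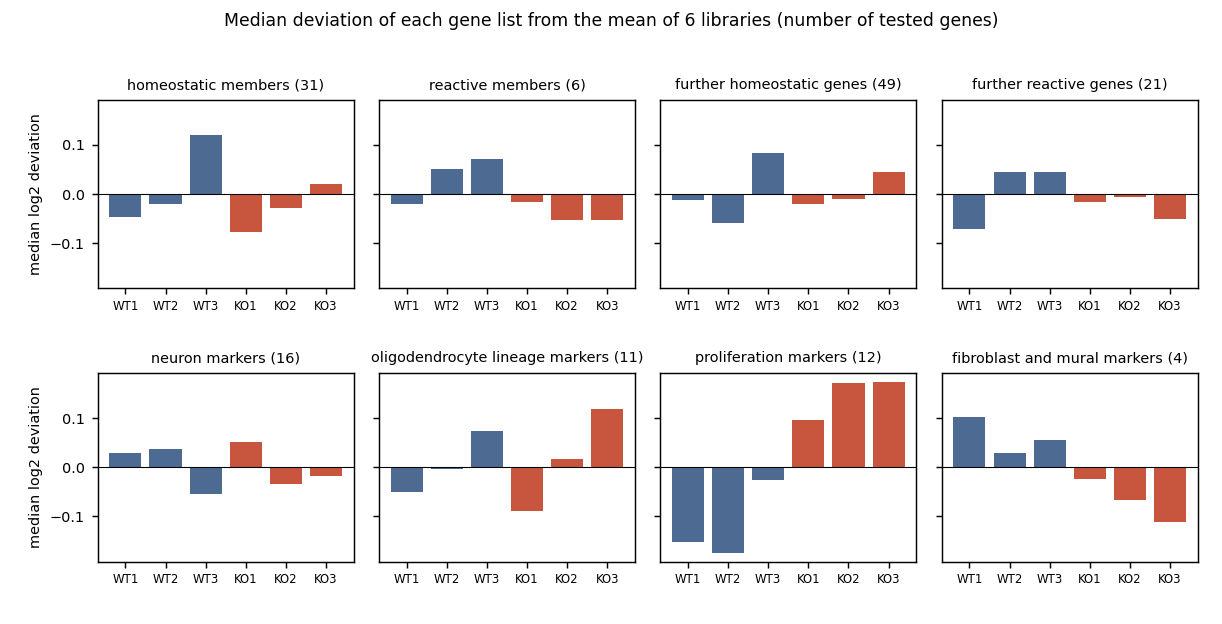
Median log2 deviation of the tested genes of each of 8 lists from their mean over the 6 libraries, for each library (blue WT, red *Fmr1* KO; the number of tested genes is in the panel title). WT replicate 3 is highest at 0.12 in the homeostatic panel, and the proliferation panel has all WT bars below 0 and all *Fmr1* KO bars above 0.

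Markers of the other cells in the dish are given beside these genes. Of 19 microglia markers, 16 had a lower mean in *Fmr1* KO and 3 (*Tmem119*, *Aif1* and *Laptm5*) were at 0 in every library. Their summed FPKM was 23.9 to 29.2 in WT and 13.0 to 16.4 in *Fmr1* KO, and *Cx3cr1* and *P2ry12* stayed at or below 0.411 FPKM. Of the 3 at 0, *Aif1* has 4 loci and *Laptm5* has 2, where a 0 does not show that the transcript was absent. The lysozyme gene *Lyz2* averaged 1.75 ± 0.515 FPKM in WT and 0.166 ± 0.131 FPKM in *Fmr1* KO (-2.87, adjusted p = 0.0359 by limma). It was the only one of the 6 tested to pass. Of the 6, 4 were tested through the WT mean only, and *Lyz2* was among these 4, so its pass depended on the group where it was high. The lower microglia values and the lower *Serpina3n* were in the same libraries, and the part of microglia in the *Serpina3n* value was not tested.

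Oligodendrocyte lineage markers summed to 438 to 505 FPKM in WT and 463 to 520 FPKM in *Fmr1* KO. Of the 11 tested of 14, *Bcas1*, a marker of early myelinating cells, fell from 23.2 ± 1.63 to 15.0 ± 0.907 FPKM (-0.63, adjusted p = 0.0105 by limma). *Pdgfra* (0.29, adjusted p = 0.162) and *Olig2* (0.25, adjusted p = 0.133) were separated in the other direction without passing, and the median over the 11 was 0.01. The remaining 8 tested genes overlapped, among them *Cspg4* (0.06), *Sox10* (0.05), *Olig1* (0.14) and *Gpr17* (-0.20). Of the 11, 2 were thus separated upwards and 1 downwards, where all tested loci gave 10.8% and 10.3%. Neuron markers had a median change of -0.004 over 16 genes, with none past the test by limma. Without adjustment, 2 were higher and 1 lower with p below 0.05, where all tested loci gave 6.99% and 7.77%. The extremes of the 16 were *Map2*, a dendritic microtubule protein (0.26, adjusted p = 0.0593), and *Nefl*, the light neurofilament (-0.24, adjusted p = 0.170). The 10 endothelial markers summed to 3.84 to 4.09 FPKM in WT and 2.43 to 3.15 FPKM in *Fmr1* KO. *Cldn5*, which has 2 loci, was listed at 0 throughout, and *Kdr* was the only tested gene (-0.003, adjusted p = 0.997 by limma). Of 12 ependymal and choroid plexus markers, *Ttr*, which encodes the thyroid hormone carrier transthyretin, was listed at 0, 0 and 0.0910 FPKM in WT and at 56.6, 52.0 and 60.7 FPKM in *Fmr1* KO (adjusted p = 4.47e-07 by limma). The *Ttr* locus spans 116 kb and so reaches well beyond the gene. The list summed to 8.22 to 10.4 FPKM in WT and 59.2 to 70.5 FPKM in *Fmr1* KO, most of it *Ttr* in the latter. Of the 5 tested genes of this list, *Ttr*, *Folr1* and *Dynlrb2* entered through 1 genotype only. *Dynlrb2*, a dynein light chain of cilia (-2.56, adjusted p = 0.0920), and *Rarres2*, encoding chemerin (-0.40, adjusted p = 0.222), had lower means in *Fmr1* KO. The median over the 5 was -0.02. Over all 12, 6 genes had a higher and 5 a lower mean in *Fmr1* KO. Below 1 FPKM, *Clic6* was listed at 0.0625 to 0.0941 FPKM in WT and 0.386 to 0.704 FPKM in *Fmr1* KO. *Aqp1* was at 0.147 to 0.328 FPKM in WT and 0.354 to 0.577 FPKM in *Fmr1* KO, also without overlap. Over all 12, 3 genes were separated upwards and 3 downwards, the latter being *Dynlrb2*, *Rarres2* and *Ccdc153*. Of the 5 tested, 1 was separated upwards and 2 downwards, where all tested loci gave 10.8% and 10.3%.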

How the data were processed

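Total RNA of primary hippocampal cultures was sequenced from 3 WT and 3 *Fmr1* KO samples at 14 days in vitro. According to the methods, the authors removed adapters, trimmed reads, mapped them to GRCm38 with TopHat2, assembled with Cufflinks and compared genotypes with Cuffdiff. The sources used here do not state versions, annotation, strand or how libraries were scaled. Per library, the table deposited by the authors gives FPKM (48100 rows, 47086 loci, of which 20105 were at 0 in every library). Its group values, fold changes, p-values and q-values from Cuffdiff were not used. Its starts count from 0 and are given here from 1.

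FPKM are not counts, so loci with a mean of at least 1 FPKM in either genotype were tested with limma 3.58.1 (R 4.3.3) on log2(FPKM + 0.1), modelling genotype alone and a trend of variance with mean, and adjusting p by Benjamini-Hochberg over 13195 loci. The fit was tested on simulated data. A symbol with several loci was represented by the one with the highest FPKM. Exact permutation tests of single values cannot go below 0.1 with 3 against 3 and are not printed. Absolute depth is unknown.

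The genes and lists were chosen with earlier results of these data known. All 43 genes, *Fmr1*, and the genes of each other list past the adjusted threshold, or else its extremes, are named. *Gm32834*, *Hps3* and *Lrp3*, which share the region of a listed gene, were named after their values were seen. So were *Pdgfra*, *Olig2*, *Cspg4*, *Sox10*, *Olig1*, *Gpr17*, *Dynlrb2*, *Rarres2*, *Ccdc153*, *Folr1*, *Clic6*, *Aqp1*, *H2-T23*, *Lgals3*, *Col1a1*, *Col1a2* and *Col3a1*. As alternatives, the pseudocount was set to 1 or 0.01 and the FPKM minimum to 5 or dropped, besides centring, no trend, robust variance, the replicate number as a block, each library left out, and summing loci. Removing the trend with locus span (lowess, span 0.3) was added after seeing the data.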

Additional observations from a re-analysis of the deposited data

How the results depend on the processing

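The direction and call of the 37 genes held in 562 comparisons over 16 alternatives and changed in those given here. The call of *Slc14a1* was lost in 7 of these (every library left out, and no FPKM minimum) and that of *Gjb6* without an FPKM minimum. *Gpr37l1* passed with a minimum of 5, with robust variance and with the block (adjusted p = 0.0439, 0.0475 and 0.0496). The cause was not tested. Counts of genes past the adjusted threshold, first higher and then lower over all loci, were 12 and 23. They became 6 and 9 without an FPKM minimum, with 26981 loci tested, and 7 and 14 without the trend. With robust variance they became 25 and 38. A minimum of 5 gave 20 higher, and removing the span trend 19. Without an FPKM minimum, 1 of the 43 genes passed and the reactive median was 0.0507, with all 12 genes counted, and at a minimum of 5 it was -0.15. The homeostatic median was 0.02 at a minimum of 5, against -0.0441 in the main fit. Removing the span trend left 2 reactive genes lower at an unadjusted p below 0.05.

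Leaving out 1 library gave 4 to 8 loci higher, 10 to 14 lower and 2 of the 43 genes past the threshold. Homeostatic genes at an unadjusted p below 0.05 were 2 to 5 higher and 8 to 11 lower, and reactive genes 0 to 1 higher and 1 to 3 lower. The homeostatic median ran from -0.0926 to 0.0305, above 0 without WT replicate 3 or *Fmr1* KO replicate 1, and the reactive median from -0.11 to -0.08. Differences near 0 changed sign with 1 library left out: *Aqp4* (-0.0329 to 0.1009), *Slc1a2* (-0.0589 to 0.1332), *Ppp1r3c* (-0.0197 to 0.0511), *Slc25a18* (-0.0332 to 0.0964), *Aldoc* (-0.0544 to 0.0413, and 0.0005 with the span trend removed) and *Glul* (-0.0935 to 0.0305).

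The deviations of same-numbered libraries correlated positively in all 3 pairs (r of 0.243, 0.058 and 0.08). Replicate 1 had the largest r of the 3, and r of -0.152 to -0.119 against the other numbers. The deviations within a genotype sum to 0 for each gene. A positive r with 1 number therefore brings negative r with the others, which are not a separate result. WT replicate 2 correlated slightly better with *Fmr1* KO replicate 3 (0.066), and the numbers were not taken as pairs in the main fit. Whether same-numbered libraries share a preparation was not tested. With the replicate number as a block, 29 loci were higher and 36 lower, 5 of the 43 genes passed, *Fabp7* (adjusted p = 0.0397) and *Gpr37l1* among them, and 1 reactive gene was higher at an unadjusted p below 0.05. The block changed no other adjusted call among the 37.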
